A study of Saccharomyces cerevisiae with 14 samples.

Results

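The transcripts described here encode subunits of the mitochondrial ATP synthase in budding yeast. They are the 10 nuclear genes ATP1, ATP2, ATP3, ATP4, ATP5, ATP7, ATP14, ATP16, ATP17 and ATP20, which are chosen by name and were found in the table by systematic name. The rule itself uses no measured value. All 10 were present among the 7122 genes of the table, and all 10 were among the 6592 genes whose mean normalized count reached 5, which were tested. The libraries came from 4 chaperone-enriched strains (ChES) of Y258, a strain derived from S288C, each overexpressing (oe) 1 chaperone gene from a plasmid carrying URA3. There were 3 libraries of oe LHS1 (an Hsp70-family chaperone of the endoplasmic reticulum), 3 of oe SSC1 (the mitochondrial Hsp70), 3 of oe TCP1 (a subunit of the cytosolic chaperonin) and 2 of oe EGD2 (the alpha part of the complex that meets nascent chains at the ribosome). The 3 libraries of wild-type Y258 with the empty vector are not analysed here, so each strain was set against the other ChES. According to the labels the ChES were grown in -URA medium with 2% glucose at 30 °C and harvested in exponential phase, whereas the study's methods describe induction with galactose and cells past the diauxic shift. The study's methods call the replicates of a strain biological. The read counts of oe LHS1 replicates 2 and 3 were much closer than those of other pairs within a strain. Their chi-square per degree of freedom was 12.1, against 324.1 to 874.5 for the other pairs. Whether they came from separate cultures was not tested, and the tests below count them as separate.

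ATP synthase uses the proton gradient across the inner mitochondrial membrane to make ATP. Its F1 head, where ATP is formed, is held still by a peripheral stalk, while a central stalk turns inside it, driven by a ring in the membrane. Most subunits are encoded in the nucleus and imported, but a few membrane subunits are made from mitochondrial genes. In yeast many nuclear genes of respiration are activated on non-fermentable carbon and repressed by glucose, in large part through the Hap2/3/4/5 complex, which binds the sequence CCAAT.

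Because the Hap complex binds CCAAT, the start of each gene was examined for it in the R64 assembly, the same build as sacCer3, to which the reads had been aligned. The windows ran from 250 bases before the start codon to 50 after its first base, and both strands were searched, ATTGG being the form on the opposite strand. The motif was found in 9 of 10 members, against 43.3% of the 6001 windows of annotated genes. Between 250 and 101 bases before the start codon, a part chosen after the positions were seen, it was found in 9 of 10 members, against 23.1% of all windows. The 9 genes held 14 matches in all, and 4 of them held more than 1. The sequences below show 1 place per gene in that part, the match on the coding strand where there was one, with the bases around it. Capitals mark every match inside the printed bases. For ATP1, which held none, the 150 bases from 250 to 101 before its start codon are shown. All read 5′ to 3′ on the coding strand.
ATP2: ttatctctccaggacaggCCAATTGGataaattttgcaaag
ATP3: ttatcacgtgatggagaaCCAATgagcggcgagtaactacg
ATP16: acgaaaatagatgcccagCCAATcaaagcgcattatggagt
ATP4: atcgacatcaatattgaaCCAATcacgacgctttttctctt
ATP5: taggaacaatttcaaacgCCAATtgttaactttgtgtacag
ATP7: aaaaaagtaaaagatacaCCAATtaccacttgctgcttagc
ATP14: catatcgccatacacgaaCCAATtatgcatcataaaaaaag
ATP17: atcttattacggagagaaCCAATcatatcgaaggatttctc
ATP20: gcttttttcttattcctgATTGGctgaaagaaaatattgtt
ATP1: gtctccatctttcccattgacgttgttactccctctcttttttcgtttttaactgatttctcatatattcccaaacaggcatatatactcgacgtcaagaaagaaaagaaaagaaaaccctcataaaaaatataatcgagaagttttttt

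The first base of the match shown lay between 163 bases (ATP5) and 229 bases (ATP17) before the start codon. Among the F1 genes it was at 185 bases for ATP2 (chrX:647404-647444), 195 for ATP3 (chrII:315362-315402) and 164 for ATP16 (chrIV:442847-442887). Among the stalk genes it was at 189 bases for ATP4 (chrXVI:408911-408951), 163 for ATP5 (chrIV:1058955-1058995), 177 for ATP7 (chrXI:408144-408184) and 197 for ATP14 (chrXII:722548-722588). For the membrane subunits it was at 229 bases for ATP17 (chrIV:1228364-1228404) and 169 for ATP20 (chrXVI:599683-599723). ATP20 was the 1 gene with a match on the opposite strand only. Further matches on the opposite strand lay at 182 bases in ATP2, where it overlaps the one on the coding strand, 219 in ATP4 and 220 in ATP7, and in ATP16 at 15 bases after the first base of the start codon. ATP2 also held a match on the coding strand at 46 bases before its start codon. The stretch of ATP1 lies at chrII:36803-36952. These are matches of letters and not measured sites.

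The ChES libraries held 10127206 to 20286329 reads (median 14090055), recovered as whole numbers from the deposited values. The overexpressed gene stood above every library of the other strains in 3 of 3 oe LHS1, 3 of 3 oe TCP1 and 2 of 2 oe EGD2 libraries, but in only 1 of 3 libraries labelled oe SSC1 (replicate 2). These are therefore called the libraries labelled oe SSC1. Of the 4 galactose genes examined, GAL7 had the widest range (42.0 to 417 normalized counts) and GAL1 the narrowest (237 to 836). The carbon source of the cultures was not tested. Pearson's r of the log2 levels was 0.879 to 0.993 within a strain and 0.841 to 0.993 between strains, and the first principal component held 57.2% of the variance. The 10 members together made up 0.252% (oe SSC1 replicate 2) to 0.432% (oe LHS1 replicate 3) of the normalized counts of a library.

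In these libraries the subunit transcripts were highest in oe TCP1 replicate 3, oe LHS1 replicates 2 and 3 and oe TCP1 replicate 2, and lowest in oe SSC1 replicates 1 and 2 and oe LHS1 replicate 1. No member passed the test for differences among strains after adjustment over all genes. In bulk cultures, fewer cells with a high level and a lower level in every cell cannot be told apart. The values below are normalized counts, read counts divided by the library's DESeq2 size factor, and compare libraries for 1 gene but not genes with each other.

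The F1 head is made of ATP1 and ATP2, and ATP3 and ATP16 belong to the central stalk that turns in it. ATP1 encodes the alpha subunit (YBL099W, chrII:37053-38690). It had 6793, 9478 and 9351 normalized counts in oe LHS1, 6232, 7317 and 10674 in libraries labelled oe SSC1, 8421, 10442 and 8672 in oe TCP1, and 8344 and 10597 in oe EGD2. Its lowest and its highest value both lay in libraries labelled oe SSC1, so every strain overlapped the others. ATP2 encodes the catalytic beta subunit (YJR121W, chrX:647607-649142) and had 12436, 19816 and 20807 normalized counts in oe LHS1, 11679, 11395 and 12753 in libraries labelled oe SSC1, 14422, 20894 and 20428 in oe TCP1, and 15996 and 18887 in oe EGD2. The libraries labelled oe SSC1 averaged 11942 ± 716 (SD, n = 3), and only oe LHS1 replicate 1 from another strain fell among them.

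ATP3 (YBR039W), the gamma subunit, lies at chrII:315575-316510. It had 2914, 4575 and 4489 normalized counts in oe LHS1, 2745, 2749 and 4752 in libraries labelled oe SSC1, 3237, 4268 and 5119 in oe TCP1, and 3707 and 4128 in oe EGD2. Replicate 3 labelled oe SSC1 was here the second highest library, unlike replicates 1 and 2. ATP16 (YDL004W), the delta subunit, lies at chrIV:443029-443511 and had 1770, 2728 and 2811 normalized counts in oe LHS1, 1677, 1340 and 2053 in libraries labelled oe SSC1, 2003, 2481 and 2891 in oe TCP1, and 2381 and 2388 in oe EGD2. The libraries labelled oe SSC1 reached above oe LHS1 replicate 1 and oe TCP1 replicate 1 only.

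The peripheral stalk is built from ATP4 (subunit b), ATP5 (the subunit also called OSCP), ATP7 (subunit d) and ATP14 (subunit h). ATP4 (YPL078C, chrXVI:408010-408744) had 3996, 5345 and 4470 normalized counts in oe LHS1, 3792, 3051 and 4337 in libraries labelled oe SSC1, 3681, 5474 and 5880 in oe TCP1, and 4869 and 5316 in oe EGD2. ATP5 (YDR298C, chrIV:1058176-1058814) had 2231, 4152 and 4193 in oe LHS1, 2034, 1871 and 2336 in libraries labelled oe SSC1, 2509, 2952 and 4625 in oe TCP1, and 2757 and 2573 in oe EGD2. ATP5 had the widest range of the members, 2.47-fold between oe TCP1 replicate 3 and oe SSC1 replicate 2. ATP7 (YKL016C, chrXI:407465-407989) had 2377, 3367 and 3621 in oe LHS1, 2027, 1583 and 2114 in libraries labelled oe SSC1, 2127, 2852 and 3694 in oe TCP1, and 2736 and 2855 in oe EGD2. ATP7 was the only member with a strain whose libraries all lay outside the others, since the highest of the libraries labelled oe SSC1 (2114) was just under oe TCP1 replicate 1 (2127). ATP14 (YLR295C, chrXII:721999-722373) had 1123, 2109 and 2499 in oe LHS1, 1153, 1420 and 1393 in libraries labelled oe SSC1, 1154, 1608 and 2243 in oe TCP1, and 1238 and 1616 in oe EGD2. ATP14 was the only member at its lowest in oe LHS1, in replicate 1, and that strain also held its highest library, replicate 3.

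ATP17 (subunit f) and ATP20 (subunit g) sit in the membrane, and subunit g takes part in joining the enzyme into dimers. ATP17 (YDR377W, chrIV:1228611-1228916) had 1295, 2018 and 1832 normalized counts in oe LHS1, 1097, 1001 and 1746 in libraries labelled oe SSC1, 1231, 2361 and 2187 in oe TCP1, and 1576 and 2430 in oe EGD2. It was the only member at its highest in an oe EGD2 library. ATP20 (YPR020W, chrXVI:599870-600217) had 647, 1246 and 1375 in oe LHS1, 670, 601 and 868 in libraries labelled oe SSC1, 738, 940 and 1306 in oe TCP1, and 817 and 994 in oe EGD2. Its oe LHS1 libraries spanned most of its range, from replicate 1 near the bottom to replicate 3 at the top.

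**Figure D1:**
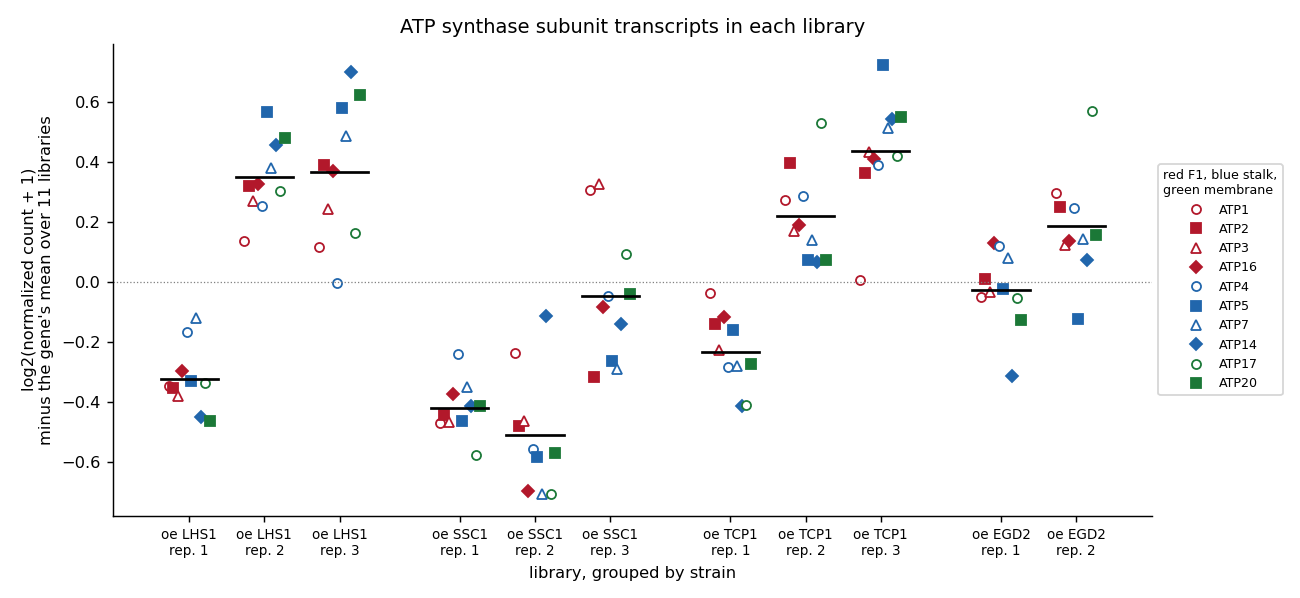
Level of each of the 10 subunit transcripts in the 11 libraries, as log2(normalized count + 1) minus the gene's own mean over all libraries; points are genes, black bars the mean over the 10 genes. The bar is highest in oe TCP1 replicate 3 (0.44) and lowest in oe SSC1 replicate 2 (-0.51), and libraries of 1 strain lie far apart.

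The lowest library was oe SSC1 replicate 2 for 7 members, oe SSC1 replicate 1 for 2 and oe LHS1 replicate 1 for 1. The highest was oe TCP1 replicate 3 for 5 members and oe LHS1 replicate 3 for 2, and 3 other libraries held the maximum of 1 member each. The fold between a member's highest and lowest library was 1.71 for ATP1 to 2.47 for ATP5. The median of this range over the members was 1.13 on the log2 scale, against 1.39 over all 6592 genes. These genes were not matched to the members by level, and the range of a low gene also holds counting error. Averaged over the 10 genes and centred on each gene's mean, the log2 level was -0.32, 0.35 and 0.37 in the oe LHS1 libraries, -0.42, -0.51 and -0.05 in libraries labelled oe SSC1, -0.23, 0.22 and 0.44 in oe TCP1, and -0.03 and 0.19 in oe EGD2. In oe LHS1 replicate 2 and oe TCP1 replicates 2 and 3 all 10 members stood above their own mean, and in oe LHS1 replicate 1, oe SSC1 replicates 1 and 2 and oe TCP1 replicate 1 none did.

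Whether any member differed among the 4 strains was tested by limma, with log2(normalized count + 1) as the value and Benjamini-Hochberg adjustment over all 6592 genes and a threshold of 0.05. None of the 10 members passed, with an adjusted p of 0.964 for 9 members and 0.975 for ATP1. The background was also low, with 0.0455% of genes called (TCP1, LHS1 and HIP1, a histidine permease), and 0.0455% were also called by edgeR's quasi-likelihood test and by DESeq2 on the recovered reads. At an unadjusted p under 0.05, 0 members passed, against 0.561% of all genes. With 2 or 3 libraries a strain, these tests do not show that the members were equal.

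By strain mean, the members stood lowest in the libraries labelled oe SSC1. Averaged over the members, replicate 3 of these (-0.05) stood above oe LHS1 replicate 1 (-0.32) and oe TCP1 replicate 1 (-0.23). All 10 members had a negative difference from the mean of the other 3 strains, as had 3183 of 6592 genes tested. These 10 signs are not independent, as the members rose and fell together. The median difference was -0.49 on the log2 scale, against 0.01 over all genes tested. ATP7 was the lowest (-0.61 ± 0.22, SE) and ATP1 the nearest to 0 (-0.19 ± 0.26). No member passed the adjusted threshold in limma (adjusted p = 1.0 for each), where 0.0152% of genes were called, 1 gene, HIP1. HIP1 stood higher in the libraries labelled oe SSC1, with a log2 difference of 4.02. edgeR also called 0.0152% and no member, and DESeq2 called 0.0607% and no member. At an unadjusted p under 0.05, 2 of 10 members passed in limma (ATP7 and ATP16), against 0.895% of all genes. ATP7 was the 1 member whose libraries did not overlap those of the other strains, and such libraries were found for 0.379% of all genes. With both libraries that lacked raised SSC1 left out, 1 library remained, oe SSC1 replicate 2, in which ATP7 was lowest, and the difference of ATP7 was -0.87. The spread in that fit comes from the other strains alone, and the lone library is assumed to vary like them. In the same library the mean over the members was the lowest of all 11 libraries.

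In oe LHS1, 9 members had a positive difference and 1 a negative one, with a median of 0.15 against 0.01 over all genes. Of 6592 genes tested, 3377 had a positive difference. ATP5 stood highest (0.37 ± 0.26, SE, limma adjusted p = 0.677) and ATP1 lowest (-0.06 ± 0.26, adjusted p = 0.941). The sign for ATP1 depended on the libraries, as it became positive without oe LHS1 replicate 1 (0.10). No member passed, and 0.0152% of genes did, LHS1 itself, in limma, in edgeR and in DESeq2. At an unadjusted p under 0.05 the count was 0 members, against 3.69% of all genes, and no member had libraries apart from the other strains, against 0.182% of all genes.

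In oe TCP1, all 10 members had a positive difference, as had 3315 of 6592 genes tested, with a median of 0.16 against 0.00 over all genes. ATP5 stood highest here too (0.29 ± 0.26, SE) and ATP1 lowest (0.10 ± 0.26), each with a limma adjusted p of 1.0. The background was 0.0152% in limma (TCP1), 0.0152% in edgeR and 0.0455% in DESeq2, with no member among the genes called. The count was 0 members at an unadjusted p under 0.05, against 0.364% of all genes, and 0 members without overlap, against 0.167%. In oe EGD2, 8 members had a positive and 2 a negative difference, with a median of 0.14 against -0.01 over all genes. Of 6592 genes tested, 3245 had a positive difference there. ATP17 stood highest (0.32 ± 0.32, SE, limma adjusted p = 0.734) and ATP14 lowest (-0.15 ± 0.32, adjusted p = 0.869). The background was 0% in limma and 0% in edgeR and 0.0303% in DESeq2, with no member called. At an unadjusted p under 0.05 there were 0 members, against 2.94% of all genes, and 0 members without overlap, against 4.31%. The 4 comparisons share libraries, since each strain is part of the reference of the other 3, so their signs are not independent.

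**Figure D2:**
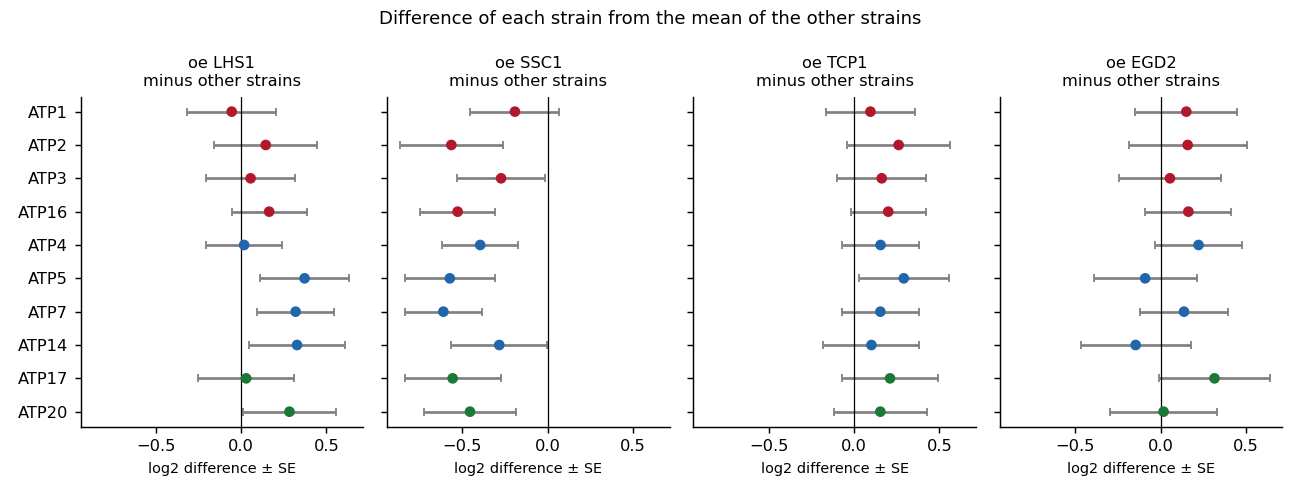
Difference of each strain from the mean of the other 3 strains for each member, as log2(normalized count + 1) from limma, with bars showing 1 SE; red marks F1 and central stalk genes, blue peripheral stalk genes and green membrane subunits. All 10 differences are negative in the libraries labelled oe SSC1, with a median of -0.49, and none passed the adjusted threshold in any strain.

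Replicate numbers were compared with the strain in the same fit, because earlier results of these data had shown that libraries of 1 strain differ widely. The mean over the members was lowest in replicate 1 in oe LHS1, oe TCP1 and oe EGD2, and in replicate 2 in the libraries labelled oe SSC1. limma called 0 genes and 0 members, and edgeR called 0 genes, with 0% for each. DESeq2 called 4.67% of genes and 1 member, ATP14 (adjusted p = 0.0474). At an unadjusted p under 0.05 in limma, 4 of 10 members passed (ATP3, ATP14, ATP17 and ATP20), against 11.8% of all genes. The 1 call of DESeq2 was thus not made by the other tools.

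Normalized counts per kilobase of coding length put the members of 1 library on 1 scale. On this scale ATP2 was the highest of the 10 in every library and ATP20 the lowest. ATP2 had a median of 10414 per kilobase (7419 to 13603 over the 11 libraries), 1.70-fold that of ATP4 in the median library and above it in 11 of 11. ATP20 had a median of 2495 per kilobase (1727 to 3950), and ATP14, the next above it, was higher in 11 of 11 libraries by a median of 1.59-fold. Between these ends the order was ATP4, ATP17, ATP1, ATP7, ATP16, ATP3, ATP5 and ATP14 by the median, and no neighbouring pair of these kept its order in all 11 libraries. ATP1 and ATP2 encode proteins that stand in equal number in the F1 head, yet ATP2 exceeded ATP1 in every library. In normalized counts not set to length, the ratio of ATP2 to ATP1 was 1.19 in oe SSC1 replicate 3 to 2.36 in oe TCP1 replicate 3, with a median of 1.87. Length was taken from the coding sequence alone, so untranslated bases count as 0 in this scale. Whether the frames YBL100C and YLR294C, described further below, overlap ATP1 and ATP14 and lower their counts was not examined.

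**Figure D3:**
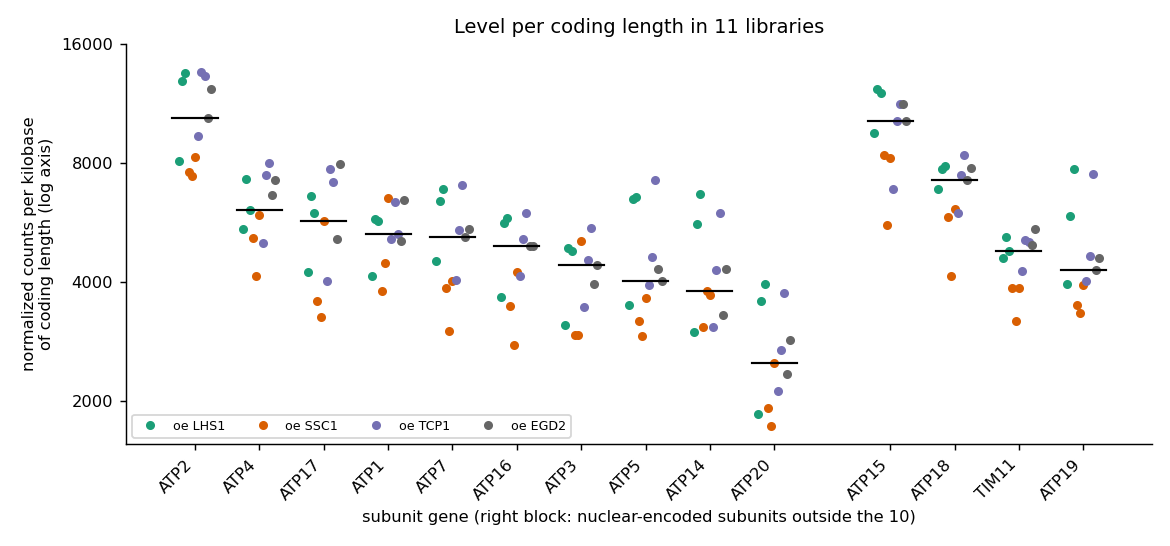
Normalized counts per kilobase of coding length on a log axis, 1 point per library coloured by strain and a black bar at the median, for the 10 members and, at the right, 4 other nuclear-encoded subunits. ATP2 has the highest median of the 10 (10414) and ATP20 the lowest (2495).

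The members followed each other across libraries, with Pearson's r of the log2 levels between 0.46 (ATP1 and ATP5) and 0.96 (ATP16 and ATP7) and a median of 0.83 over 45 pairs. These are descriptions over 11 libraries that share strains and size factors. Pairs of other genes were not measured for comparison. Each member's r with the mean of the other 9 was 0.68 for ATP1, 0.81 for ATP14 and 0.87 to 0.96 for the other 8, up to ATP20 (0.96). ATP1 thus had the lowest r and also the narrowest range. With the mean profile of the other 9 subtracted, its SD on the log2 scale was 0.26. This was close to that of ATP14 (0.24) and ATP17 (0.22), and the smallest was that of ATP16 (0.10). The ratio of ATP16 to ATP7, which belong to different stalks, varied least, by 1.304-fold over the 11 libraries, and that of ATP1 to ATP5 most, by 2.44-fold.

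The genes most like the mean profile of the members were found among the other 6582 tested genes, of which 13 had an r over 0.9. Over these 6582 genes the median r was -0.0007, and the 5th and 95th percentiles were -0.71 and 0.69. Over the 11 libraries the closest were APS3 (r = 0.94, an adaptor protein subunit), YTA12 (0.94, a subunit of the m-AAA protease of the inner mitochondrial membrane), MRPL6 (0.93, a mitochondrial ribosomal protein) and COX6 (0.93, a cytochrome c oxidase subunit). RFC2, a subunit of the clamp loader replication factor C, SEY1, a GTPase of the endoplasmic reticulum, YGR017W, COX8, CRN1, which encodes coronin, and COX4 made up the rest of the closest 10 (0.92 to 0.91). The genes with the most opposite profile were RSB1, a membrane protein linked to sphingoid bases (-0.95), YGR265W (-0.94), YBR184W (-0.94), CET1, an enzyme of messenger RNA capping (-0.93), and YEL023C (-0.92). Which genes were closest depended on the libraries. Of the 10, 3 to 9 were again among the closest 10 when 1 library was left out, 3 without oe SSC1 replicate 2, and 9 were again there with libraries scaled to equal totals.

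The other nuclear-encoded subunits had profiles much like the members'. ATP15, the epsilon subunit of the central stalk, had 1805, 2334 and 2270 normalized counts in oe LHS1, 1580, 1056 and 1558 in libraries labelled oe SSC1, 1298, 1935 and 2131 in oe TCP1, and 2135 and 1936 in oe EGD2. Its r with the mean profile of the members was 0.82. TIM11 (subunit e) ranged from 928 to 1582 (r = 0.80), ATP18 from 745 to 1505 (r = 0.86) and ATP19 from 692 to 1602 (r = 0.90), each lowest in oe SSC1 replicate 2, where ATP15 was lowest too. The list of 6 tested other subunits also holds the mitochondrial ATP6 and OLI1. Against the other strains, its median difference was 0.17 for oe LHS1, -0.47 for the libraries labelled oe SSC1, 0.16 for oe TCP1 and 0.10 for oe EGD2. Of these genes, 0 of 6 passed the adjusted threshold of limma in any comparison. The mitochondrial genes of the enzyme were scarcely counted. ATP6 had 7.11 to 25.2 normalized counts and OLI1 8.93 to 43.4 (r = 0.20 and 0.56), and ATP8 had 0 reads in all 11 libraries, which allows up to 3 reads in each.

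The 3 genes of the inhibitor group had different profiles. INH1 encodes the peptide that blocks ATP hydrolysis by the enzyme, and STF1 and STF2 encode its relative and a stabilizing factor of the inhibited complex. INH1 had 850, 1417 and 1254 normalized counts in oe LHS1, 728, 665 and 845 in libraries labelled oe SSC1, 793, 1167 and 965 in oe TCP1, and 1177 and 1235 in oe EGD2, and its r with the members was 0.84. STF1 had 1454, 779 and 806 in oe LHS1, 1406, 827 and 1963 in libraries labelled oe SSC1, 1283, 2776 and 396 in oe TCP1, and 1921 and 3012 in oe EGD2. STF2 had 5240, 873 and 1058 in oe LHS1, 5630, 1200 and 4772 in libraries labelled oe SSC1, 6191, 11371 and 577 in oe TCP1, and 9038 and 14298 in oe EGD2. STF2 thus ranged 24.8-fold, and its lowest library, oe TCP1 replicate 3, was the one with the highest mean over the 10 members. Both STF1 (r = -0.20) and STF2 (-0.30) followed the members little, and 0 of 3 inhibitor genes passed the adjusted threshold of limma in any comparison.

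The Hap complex was read from its subunit genes. HAP4, the activating and regulated subunit, had 5647, 4041 and 4148 normalized counts in oe LHS1, 4947, 4517 and 2629 in libraries labelled oe SSC1, 4865, 6336 and 2562 in oe TCP1, and 6416 and 8949 in oe EGD2. HAP4 was lowest in oe TCP1 replicate 3 and highest in oe EGD2 replicate 2, and its r with the members was -0.18. The DNA-binding subunits HAP2, HAP3 and HAP5 ranged 2.29-fold, 1.86-fold and 1.87-fold. HAP1, an activator regulated by haem that acts apart from the complex, ranged from 3154 to 7205 and had an r of -0.73. None of these 5 genes passed the adjusted threshold of limma in any comparison.

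**Figure D4:**
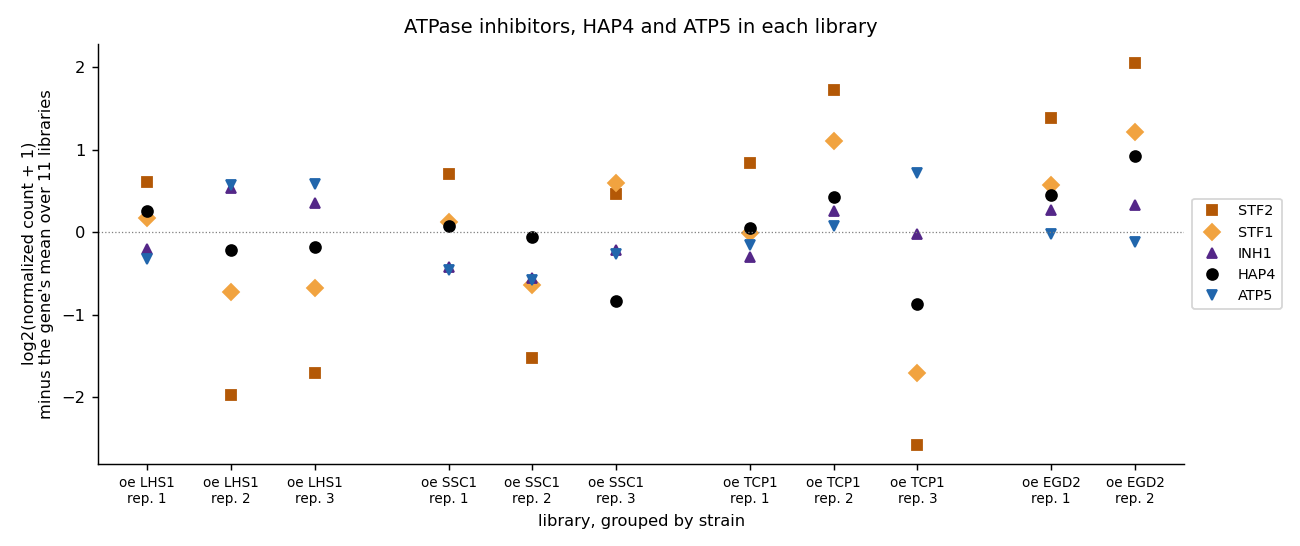
STF2, STF1, INH1, HAP4 and the member ATP5 in the 11 libraries, as log2(normalized count + 1) minus the gene's own mean; 1 point per gene and library. STF2 is lowest in oe TCP1 replicate 3 (577 normalized counts), where ATP5 is highest (4625).

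Other genes of respiration and the related vacuolar enzyme were described by the same measure. Values of r between -0.71 and 0.69, the 5th and 95th percentiles of the other tested genes, were common in these data. The 9 cytochrome c oxidase genes, which encode the last enzyme of the electron transport chain, had a median r of 0.82 with the members, and a median difference of -0.49 in the libraries labelled oe SSC1, where all 9 were negative. There 5 of these 9 had an unadjusted p under 0.05, as had 2 of 9 cytochrome bc1 genes, 3 of 6 other ATP synthase subunits (ATP6 and OLI1 included) and 0 of 14 vacuolar ATPase genes, against 0.895% of all genes. COX6 had the narrowest range of them (1370 to 2227) and COX5B, the isoform made at low oxygen, the widest (375 to 4855, r = -0.22). The 9 cytochrome bc1 genes had a median r of 0.49 and a median difference of -0.39 in the libraries labelled oe SSC1, where all 9 were negative, with COR1 narrowest (5486 to 8063) and QCR8 widest (1604 to 5838). The 14 vacuolar ATPase genes, whose enzyme pumps protons at the cost of ATP, had a median r of 0.57, from VMA6 (3606 to 5604) to VMA4 (646 to 2224). None of the genes of these 3 lists passed the adjusted threshold of limma in any comparison. In the libraries labelled oe SSC1, 3183 of 6592 genes tested had a negative difference. Signs within a list are not independent where its genes rise and fall together.

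The assembly and expression factors of ATP synthase were spread over the whole scale of likeness. Of these 14 genes ATP11, whose product binds the beta subunit before assembly, had the highest r (0.82), and ATP22, needed for translation of the mitochondrial ATP6 message, the lowest (-0.92). ATP22 had 2065, 1492 and 1378 normalized counts in oe LHS1, 1858, 2215 and 1543 in libraries labelled oe SSC1, 1889, 1448 and 1224 in oe TCP1, and 1429 and 1456 in oe EGD2, so it was highest in oe SSC1 replicate 2 and lowest in oe TCP1 replicate 3. AEP1 ranged least (1054 to 1548) and NCA3 most (658 to 6214). The 5 carriers of ADP, ATP and phosphate had a median r of -0.02, with PET9, the main ADP/ATP carrier, narrowest (6490 to 15326) and PIC2 widest (560 to 7639). No gene of these 2 lists passed the adjusted threshold of limma in any comparison.

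**Figure D5:**
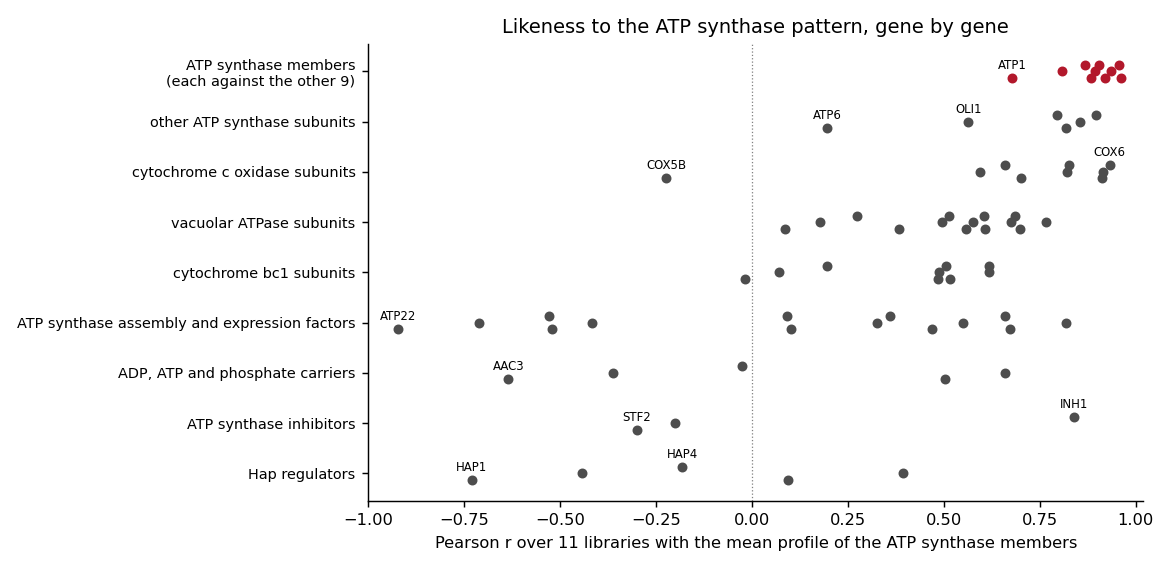
Pearson's r over 11 libraries between each gene's log2 level and the mean profile of the 10 members, 1 point per gene, grouped by list; the red points compare each member with the mean of the other 9. Other subunits, ATP6 and OLI1 included (median 0.81), and cytochrome c oxidase genes (median 0.82) lie mostly at the right, ATP22 (-0.92) at the far left.

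The qPCR primers listed in the study's supplement were matched to the R64 genome, because the list gives ATP20 the systematic name of ATP2, YJR121W. Both primers of that entry matched ATP20 (YPR020W) and no other place exactly, at chrXVI:599870-599897 and chrXVI:600055-600081. They are shown since they decide which of the 2 genes a reading belongs to.
ATP20 forward: atgctaagcaggatccaaaattatacca
ATP20 reverse: tctgtaggctttagagcaaagtttagg

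No annotated gene overlapped any of the 10 members in the RefSeq annotation of R64. The table also holds YBL100C (174 to 380 normalized counts) and YLR294C (468 to 1001), which are not in the annotation used here and stand next to ATP1 and ATP14 in the order of systematic names. Whether they overlap these genes was not examined, and counting took no account of strand.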

How the data were processed

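RNASeq was examined in 11 libraries of 4 ChES. The authors aligned reads of total RNA to sacCer3 with STAR 2.3.0e, counted them per gene with HTSeq 0.6.0 without strand, removed outlier replicates and divided by DESeq2 size factors. The deposited signal per gene is these normalized counts. 100% of values lay within 0.01 of a whole read, so reads were recovered, and edgeR called 3 genes and DESeq2 3 genes on them for differences among strains. The 3 control libraries are not analysed here.

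Genes with a mean of at least 5 were tested in R 4.3.3 by limma 3.58.1, whose eBayes step used a trend in the variance, on log2(normalized count + 1), with 11 libraries in 1 fit and Benjamini-Hochberg adjustment. A fold on this scale understates the change of low genes. Alternatives were edgeR 4.0.16, DESeq2 1.42.0, pseudocounts of 0.5 and 8, other filters, TMM and equal-total scaling, a replicate block and leaving out each library. limma and edgeR were also run on simulated counts with known changes in oe SSC1. Their dispersion was set beforehand and not taken from these libraries, so the simulation does not measure the power of the tests here. Of 7122 genes, 6045 matched RefSeq names. In the table, 4 lines were empty. Named genes were all members, the extremes of each contrast, all other subunits, inhibitors and Hap genes, the widest and narrowest gene of each other list, and the 10 most and 5 least alike genes. ATP22 and ATP11 were named after their values were seen. Members and lists were chosen with earlier results of these data known. Intervals of reads cover counting error only.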

Additional observations from a re-analysis of the deposited data

How the results depend on the processing

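No member was called in any comparison of strains under the alternatives run. Counts of genes called moved in these cases. DESeq2 called 4 genes in the libraries labelled oe SSC1 (limma 1), 3 in oe TCP1 (limma 1), 2 in oe EGD2 (limma 0, edgeR 0, with 194 genes at an unadjusted p under 0.05) and 308 for replicate numbers (limma 0, edgeR 0, with 776 genes at an unadjusted p under 0.05). With both libraries labelled oe SSC1 that lacked raised SSC1 left out, an alternative chosen after seeing the data, 0 genes were called among strains and 0 in oe SSC1, a fit with 1 library in that strain, so these counts say nothing about stability. Of 15 pairs of libraries with the same replicate number, 8 had a correlation of deviations over 0.1 (-0.58 to 0.64). Deviations were not correlated for pairs with different numbers, so whether the numbers pair the libraries was not settled. The replicate block gave 3 genes among strains, 1 each in oe LHS1, oe SSC1 and oe TCP1, and 0 in oe EGD2. It turned ATP14 in oe EGD2 to 0.025. ATP1 in oe LHS1 turned to 0.024 with equal library totals.

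With 1 library left out, differences among strains called 3 genes each time, oe LHS1, oe SSC1 and oe TCP1 1 each, and oe EGD2 and replicate numbers 0. The log2 difference then ranged from -0.14 to 0.10 for ATP1 in oe LHS1, from -0.00044 to 0.17 for ATP1 in oe TCP1 and from -0.34 to 0.046 for ATP14 in oe EGD2. Differences that kept their sign also moved. For ATP17 in oe EGD2 the lowest was 0.0047 without replicate 2 and the highest 0.63 without replicate 1. For ATP5 they were 0.037 and 0.48 in oe TCP1 (without replicates 3 and 1) and 0.22 and 0.67 in oe LHS1 (without replicates 3 and 1). For ATP1 in the libraries labelled oe SSC1 they were -0.41 and -0.024 (without replicates 3 and 1). Without oe SSC1 replicate 2 the log2 range was 0.79 for ATP16, 0.68 for ATP4 and 0.87 for ATP7. The cause of these moves was not tested. TMM scaling raised the mean of the members in every library, by 0.09 to 0.13 on the log2 scale. The part of this shift that all libraries share cancels when libraries are compared. Equal totals shifted it by -0.00068 to 0.20. Each member had at least 618 reads in every library. The libraries with the fewest reads were oe TCP1 replicate 3 (10127206), oe LHS1 replicate 3 (10357513) and oe LHS1 replicate 2 (11199213). They were also those with the highest mean over the members. The library with the most reads, oe TCP1 replicate 2 (20286329), came at rank 4. Whether depth bears on these levels was not tested.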
